A study of Homo sapiens with 6 samples.

Results

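Prostaglandin E2 is made from arachidonic acid in a short chain of enzymes. The genes of this chain were followed here in Cal27, a tongue squamous cell carcinoma line, after the IL-1β message was partly lowered. Interleukin-1β (IL-1β) is a cytokine that epithelial and immune cells secrete in inflammation. A cytosolic phospholipase frees arachidonic acid from membranes, a cyclooxygenase turns it into prostaglandin H2, and a terminal synthase turns that into prostaglandin E2. The product leaves the cell, acts through G protein-coupled receptors on the same or nearby cells, and is inactivated by a dehydrogenase. IL-1 is a classical inducer of the inducible cyclooxygenase and of the inducible terminal synthase, and prostaglandin E2 is a well-known product of oral carcinomas.

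The members were 9 genes of this chain, of 19775 genes on the array with a probe set of a single symbol: PLA2G4A, PTGS1, PTGS2, PTGES, PTGES2, PTGES3, HPGD, PTGER2 and PTGER4. All probe sets (groups of short probes for 1 transcript) for which the platform annotation lists exactly 1 of these symbols were taken, which gave 18 of the 54675 probe sets in the table. Expression was measured on Affymetrix Human Genome U133 Plus 2.0 arrays, 3 for each group. The cells carried lentiviral LV-shIL-1β, a short hairpin RNA against IL-1β, or LV-shNC, a scrambled hairpin, and both groups were stable cells kept in 2 µg/mL puromycin for 2 weeks. Each group thus rests on 1 hairpin in 1 cell line in culture, and whether the stable cells were clones or pools is not given in the labels. Nor is it stated whether replicate arrays hold RNA of separate cultures. The p-values therefore speak of the spread among these arrays alone, and that spread may be technical.

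The hairpins are shown because they define the groups. Each had a stem of 20 bases and a loop of 7 bases, and the capitals mark the stem arms of the forward oligo, 5′ to 3′.
LV-shIL-1β: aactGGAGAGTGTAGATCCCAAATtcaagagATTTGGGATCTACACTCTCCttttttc
LV-shNC: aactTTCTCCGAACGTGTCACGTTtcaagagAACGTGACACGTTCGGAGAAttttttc

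Signals were deposited as intensities on a linear scale. A probe set was tested if at least 3 of the 6 arrays lay above a signal of 18.6, the median of all values, and limma adjusted its p-value by the Benjamini-Hochberg method over all 27566 probe sets that passed this filter. A probe set is said to have risen or fallen where that adjusted p was under 0.05. The target came down on the arrays: IL1B fell on both its probe sets, 205067_at from 2594 ± 92.6 in LV-shNC to 1578 ± 15.8 in LV-shIL-1β (SD, n = 3, limma adjusted p = 2.46e-05) and 39402_at from 1957 ± 55.4 to 1170 ± 16.3 (SD, n = 3, limma adjusted p = 2.46e-05). Correlations of log2 signals lay between 0.995 and 0.997 within groups and between 0.990 and 0.994 across them, and no array stood apart. As a measure of RNA integrity, the 3′ signal over the 5′ signal was taken on the log2 scale, and it ran from 0.30 to 0.55 in LV-shNC and from 0.33 to 0.44 in LV-shIL-1β for ACTB. For GAPDH it ran from -0.06 to 0.01 and from 0.02 to 0.05, without overlap, and its part in the results below was not tested.

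In LV-shIL-1β cells probe sets of the inducible enzymes of the chain were called higher and some of the constitutive cyclooxygenase lower. The other synthases did not pass the test. PTGES rose on both of its probe sets, PTGS2 and PTGER4 each rose on 1, and PTGS1 fell on 2 of 4. The PTGS2 and PTGER4 calls were not stable when arrays were left out, as given below. Of the 18 member probe sets, 12 passed the filter, of which 6 were called, 4 higher and 2 lower. Over all probe sets tested, 7.05% were called, 3.68% higher and 3.37% lower. The groups did not overlap for 7 of the 12, 4 of them higher and 3 lower, against 27.9% of all probe sets tested, 15.3% higher and 12.6% lower. The median log2 fold change was 0.02 over the 12 and 0.01 over all tested, and the median absolute log2 fold change was 0.24 and 0.09. The members thus moved in both directions. The methods' t-test after adjustment called 1 of the 12, PTGES 210367_s_at, and 267 of all tested. The changes were small: of the 12 member probe sets tested 1, of PTGES, was called with a change over 1.5-fold, and of all 27566 tested 194 were, or 0.704%. In bulk RNA, fewer cells that express a gene cannot be told apart from less RNA per cell.

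**Figure D1:**
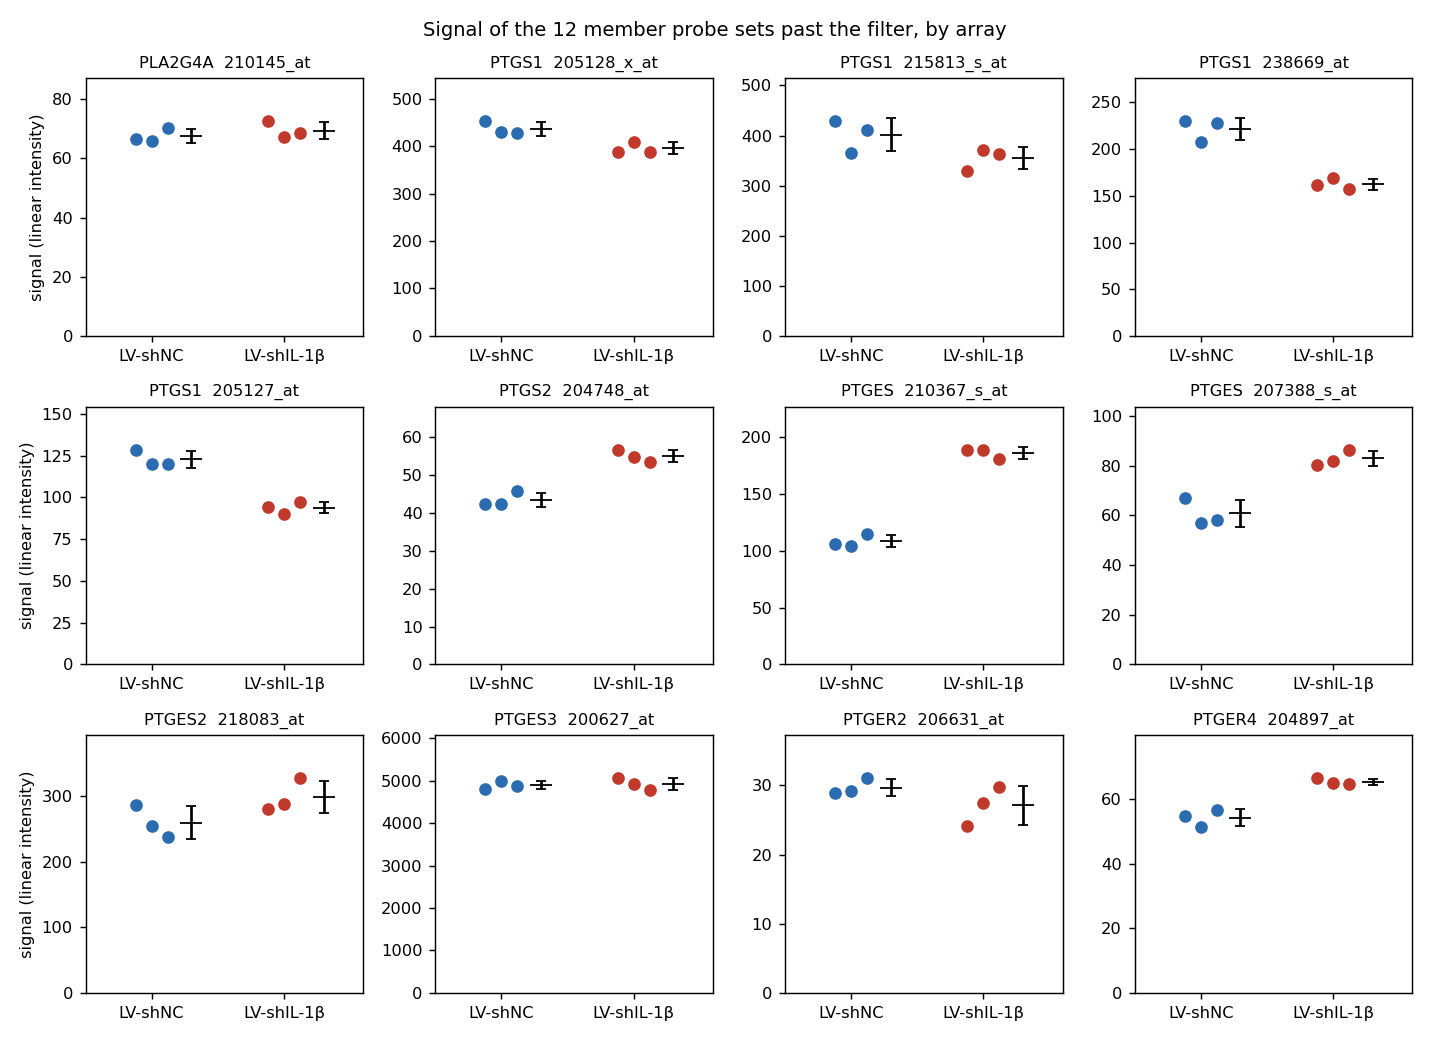
Signal (linear intensity, y axis from 0) of the 12 member probe sets past the filter, 1 panel each. Points are the 3 arrays of LV-shNC (blue) and of LV-shIL-1β (red), and bars give mean ± SD. Both PTGES panels, the PTGS2 panel and the PTGER4 panel have all red points above all blue points, and in 3 of the 4 PTGS1 panels all red points lie below.

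The release step did not pass the test. PLA2G4A, the cytosolic phospholipase that frees arachidonic acid, had signals of 66.6, 65.9 and 70.1 on the LV-shNC arrays and 72.5, 67.1 and 68.4 on the LV-shIL-1β arrays (210145_at). These ranges overlap. The log2 fold change, LV-shIL-1β minus LV-shNC throughout, was 0.04 ± 0.07 (SE), with a 95% interval of -0.11 to 0.19 (n = 3, limma adjusted p = 0.787).

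The cyclooxygenases went opposite ways. PTGS2 encodes the inducible cyclooxygenase, and its probe set 204748_at gave 42.3, 42.2 and 45.6 in LV-shNC and 56.6, 54.6 and 53.3 in LV-shIL-1β. Every LV-shIL-1β array lay above every LV-shNC array. The gene was thus 1.27-fold higher in the cells with the hairpin against IL-1β, a log2 fold change of 0.34 ± 0.07 (SE, 95% interval 0.18 to 0.50, n = 3, limma adjusted p = 0.0224). This call was not stable. With 1 array left out it held in 1 of 6 fits, that without LV-shNC replicate 3 (limma adjusted p = 0.0391). In the other 5 it was lost, and the limma adjusted p reached 0.0870. The log2 fold change in those 6 fits stayed between 0.32 and 0.38. The second PTGS2 probe set, 1554997_a_at, was below the filter on all 6 arrays, with signals of 11.6 to 13.1 in LV-shNC and 13.0 to 15.0 in LV-shIL-1β, and did not pass in the fit without the filter (limma adjusted p = 0.449).

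PTGS1 encodes the constitutive cyclooxygenase, and all 4 of its probe sets had a lower mean in LV-shIL-1β. On 238669_at the signal was 229.6, 207.7 and 227.4 in LV-shNC and 161.8, 168.5 and 157.1 in LV-shIL-1β. It fell by 0.45 ± 0.06 on the log2 scale (SE, n = 3, limma adjusted p = 0.00312), which is 1.36-fold. On 205127_at the signal was 128.5, 119.9 and 119.9 in LV-shNC and 94.4, 90.4 and 97.2 in LV-shIL-1β. It fell by 0.39 ± 0.06 on the log2 scale (SE, n = 3, limma adjusted p = 0.00727). The groups were clear of each other on both probe sets, and both calls held in 6 of 6 fits with 1 array left out, with adjusted p-values up to 0.0190 and 0.0445.

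The other PTGS1 probe sets did not pass. Their suffixes mark probes that can also match other transcripts: _x_at is used for probe sets that may cross-hybridise and _s_at for those shared by several transcripts. On 205128_x_at the signal was 452, 429 and 427 in LV-shNC and 388, 409 and 387 in LV-shIL-1β. The groups did not overlap there, and the log2 fold change was -0.14 ± 0.05 (SE, 95% interval -0.25 to -0.03, n = 3, limma adjusted p = 0.124). On 215813_s_at it was 428, 365 and 411 against 330, 372 and 363, which overlap, and the log2 fold change was -0.18 ± 0.07 (SE, 95% interval -0.34 to -0.02, n = 3, limma adjusted p = 0.179). The ratio of 238669_at to 205128_x_at within each array, a pair chosen after the values were seen, had a mean that was lower by 0.30 on the log2 scale in LV-shIL-1β. It ran from -1.05 to -0.91 in LV-shNC and from -1.30 to -1.26 in LV-shIL-1β (exact permutation p = 0.1, the smallest that 3 arrays against 3 allow).

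**Figure D2:**
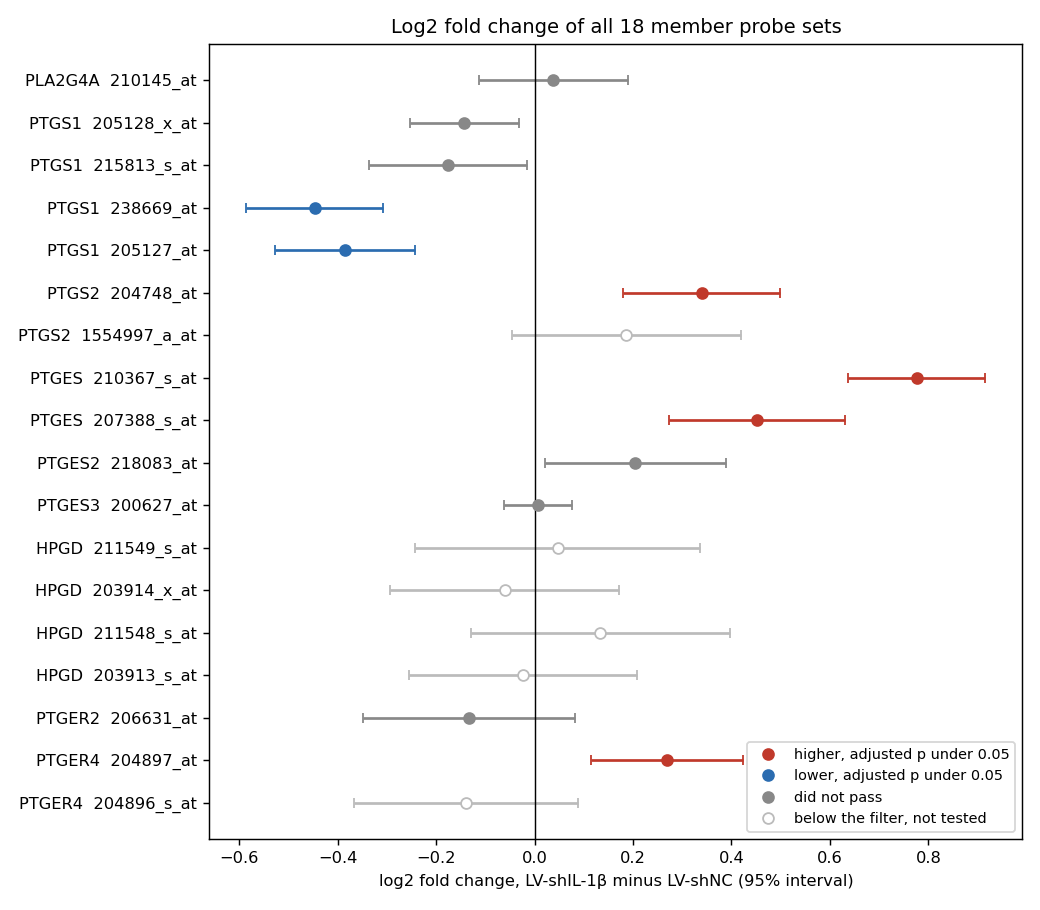
Log2 fold change (LV-shIL-1β minus LV-shNC, x axis) with its 95% interval for all 18 member probe sets, ordered along the chain from release to receptors. Red and blue points passed the test, grey points did not, and open points were below the filter. The PTGES probe sets lie farthest to the right, at 0.78 and 0.45, and the 4 of PTGS1 all lie left of 0.

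The upstream windows of the cyclooxygenase and terminal synthase genes are shown because these genes moved apart. RefSeq windows of GRCh38.p14 were matched for 9 of 9 members, 13 windows in all, each with the 250 bases before a transcription start, 5′ to 3′ on the gene's strand. Capitals mark matches, on either strand, to 6 motifs: the TATA box (searched as TATAAA), the core of the cAMP response element (TGACG), the AP-1 site (TGANTCA), the C/EBP site (TTGCNNAA), the E-box (CACGTG) and the NF-kB consensus. The last was searched as GGGRNNYYCC, with R for A or G and Y for C or T. Sites that depart from a pattern are not marked.
PTGS2, chr1:186680424-186680673, minus strand: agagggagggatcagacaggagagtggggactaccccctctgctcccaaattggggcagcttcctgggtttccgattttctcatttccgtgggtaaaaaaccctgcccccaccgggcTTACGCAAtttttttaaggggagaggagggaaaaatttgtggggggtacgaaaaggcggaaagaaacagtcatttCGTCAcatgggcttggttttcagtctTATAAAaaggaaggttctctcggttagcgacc
PTGES, chr9:129753043-129753292, minus strand: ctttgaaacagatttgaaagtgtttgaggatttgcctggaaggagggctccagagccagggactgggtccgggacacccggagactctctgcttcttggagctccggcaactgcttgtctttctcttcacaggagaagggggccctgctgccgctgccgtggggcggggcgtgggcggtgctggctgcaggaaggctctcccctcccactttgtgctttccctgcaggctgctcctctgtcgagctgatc
PTGS1, chr9:122370283-122370532, plus strand: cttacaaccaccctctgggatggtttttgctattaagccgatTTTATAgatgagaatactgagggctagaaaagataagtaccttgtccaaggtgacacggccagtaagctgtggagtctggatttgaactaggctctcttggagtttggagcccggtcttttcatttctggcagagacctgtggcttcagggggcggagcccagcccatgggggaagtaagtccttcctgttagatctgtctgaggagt

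The PTGS2 window held a TATA box 32 to 27 bases before the start, a cAMP element core on the other strand 58 to 54 bases before it and a C/EBP site on the other strand 133 to 126 bases before it. These motifs do not overlap each other. The PTGS2 window had no match to the NF-kB consensus as searched, although its stretch gggactaccc differs from that pattern at only 1 base. The PTGES window held no match, and the PTGS1 window held the TATA box letters on the other strand 208 to 203 bases before the start. A second PTGS1 window held no match. The PTGER4 window held the NF-kB consensus 244 to 235 bases before the start. Windows of PTGES3, HPGD and PTGER2 also held the NF-kB consensus, and windows of the same genes held the cAMP element core. Of these, PTGES3 and PTGER2 did not pass the test and HPGD was below the filter. Among all 35116 windows of the table, 10.7% held the TATA box, 21.2% the cAMP element core, 6.57% the AP-1 site, 9.96% the NF-kB consensus, 9.05% the C/EBP site and 6.35% the E-box. Among the 13 member windows, 2 held the TATA box, 4 the cAMP element core, 0 the AP-1 site, 4 the NF-kB consensus, 1 the C/EBP site and 1 the E-box. These are matches of letters, and no binding was measured. Since the PTGES window held no match, PTGES and PTGS2, which both rose, could not share one here, and nothing is drawn from that.

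Of the terminal synthases, PTGES rose and the others did not pass. PTGES encodes the inducible microsomal prostaglandin E synthase, which works with the inducible cyclooxygenase. Both of its probe sets carry the _s_at suffix. Probe set 210367_s_at gave 106.0, 104.5 and 115.0 in LV-shNC and 188.5, 188.6 and 180.1 in LV-shIL-1β. It was thus 1.71-fold higher, a log2 fold change of 0.78 ± 0.06 (SE, 95% interval 0.64 to 0.92, n = 3, limma adjusted p = 0.000254), and stood at rank 27 by p-value among all probe sets tested. It passed under all 16 alternative settings of the analysis, with adjusted p-values up to 0.0342.

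The second PTGES probe set, 207388_s_at, gave 67.2, 57.1 and 58.2 in LV-shNC and 80.5, 82.0 and 86.5 in LV-shIL-1β. It was 1.37-fold higher, a log2 fold change of 0.45 ± 0.08 (SE, 95% interval 0.27 to 0.63, n = 3, limma adjusted p = 0.0100). Both probe sets separated the groups completely. Without LV-shIL-1β replicate 2 the second missed the threshold (limma adjusted p = 0.0513). The ratio of the first to the second within each array, also chosen after the values were seen, lay between 0.66 and 0.98 in LV-shNC and between 1.06 and 1.23 in LV-shIL-1β on the log2 scale (exact permutation p = 0.1, the smallest possible).

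PTGES2, a second membrane-associated synthase, had signals of 287, 255 and 238 in LV-shNC and 281, 289 and 328 in LV-shIL-1β, which overlap. Its log2 fold change was 0.20 ± 0.08 (SE, 95% interval 0.02 to 0.39, n = 3, limma adjusted p = 0.172). PTGES3, the cytosolic synthase that is also the p23 co-chaperone, had 4809, 4998 and 4879 in LV-shNC and 5060, 4927 and 4780 in LV-shIL-1β. The ranges overlap and the interval was narrow: the log2 fold change was 0.01 ± 0.03 (SE, 95% interval -0.06 to 0.08, n = 3, limma adjusted p = 0.912), and its sign turned under median centring (-0.02) and array weights (-0.01).

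For breakdown, no probe set passed the filter. HPGD encodes the dehydrogenase that inactivates prostaglandin E2 and is known to be lost in many carcinomas. All 4 of its probe sets were below the filter on every array, with signals between 2.48 and 7.73 over the 6 arrays. In the fit without the filter none of the 4 passed (limma adjusted p from 0.667 to 0.949). Near the low end of the scale these values say little about the amount of its message, and no detection calls were used here.

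Of the receptors, PTGER4 was higher and PTGER2 did not pass. Both encode receptors for prostaglandin E2 that couple to Gs and raise cAMP. PTGER4 had signals of 54.9, 51.4 and 56.8 in LV-shNC and 66.5, 65.0 and 64.8 in LV-shIL-1β (204897_at). These do not overlap, and the gene was 1.20-fold higher, a log2 fold change of 0.27 ± 0.07 (SE, 95% interval 0.11 to 0.42, n = 3, limma adjusted p = 0.0473). The call was the weakest among the members: it was lost in 6 of 6 fits with 1 array left out, with adjusted p-values from 0.0726 to 0.152. It was also lost without the filter (0.0864), with median centring (0.0560) and with quantile normalization (0.0515), all limma adjusted p-values. The second PTGER4 probe set, 204896_s_at, was below the filter, with signals of 8.29 to 8.87 in LV-shNC and 7.45 to 8.35 in LV-shIL-1β.

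PTGER2 had signals of 28.9, 29.2 and 31.0 in LV-shNC and 24.2, 27.5 and 29.8 in LV-shIL-1β (206631_at). These overlap, and the log2 fold change was -0.13 ± 0.10 (SE, 95% interval -0.35 to 0.08, n = 3, limma adjusted p = 0.457).

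**Figure D3:**
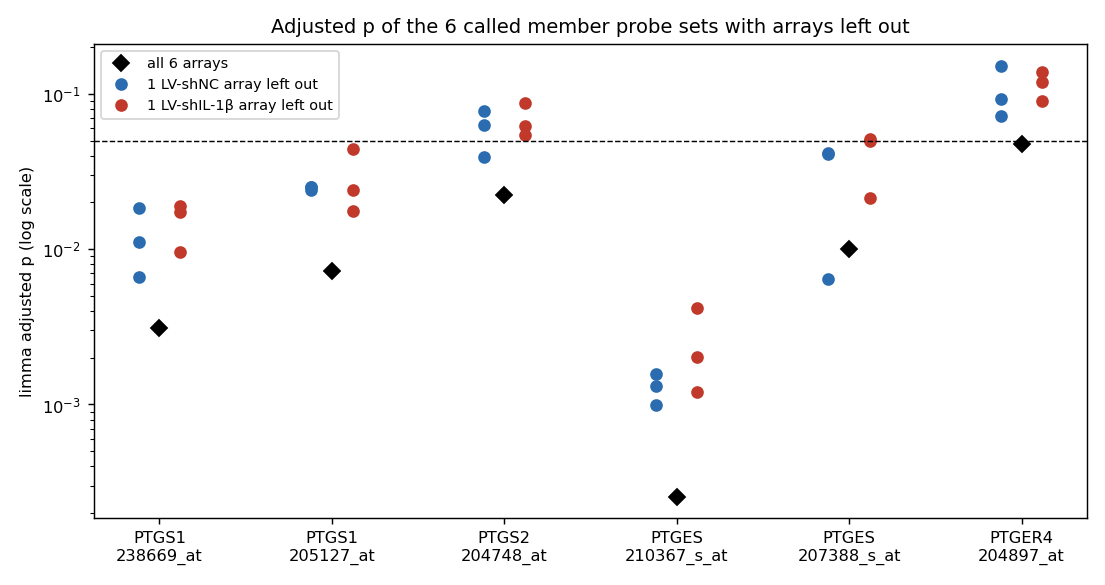
Limma adjusted p (log scale, y axis) of the 6 called member probe sets with all 6 arrays (black diamonds) and with 1 LV-shNC array (blue) or 1 LV-shIL-1β array (red) left out. The dashed line is the threshold of 0.05. The calls of PTGES 210367_s_at and of both PTGS1 probe sets stay below the line in all 6 fits, PTGES 207388_s_at crosses it in 1, PTGS2 in 5 and PTGER4 in 6.

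Ratios between members were taken within each array, from the brightest probe set of each gene past the filter, so that anything common to an array cancels. For PTGS1 this was 205128_x_at, whose probes may cross-hybridise. With 3 arrays against 3 the smallest possible exact permutation p is 0.1, so none of the 5 ratios could pass the threshold. PTGS2 over PTGS1 had log2 ratios of -3.42, -3.35 and -3.23 in LV-shNC and -2.78, -2.91 and -2.86 in LV-shIL-1β. The mean ratio of the inducible to the constitutive cyclooxygenase signal was thus 0.48 higher in LV-shIL-1β, or 1.40-fold, with no overlap and without a test that could pass (exact permutation p = 0.1, 0.125 adjusted over 5 ratios). PTGES over PTGES2 differed by 0.57 and PTGER4 over PTGER2 by 0.40, and PLA2G4A over PTGS2 by -0.30, each without overlap (exact permutation p = 0.1, 0.125 adjusted). PTGS2 over HPGD differed by 0.29 with overlap (exact permutation p = 0.2), and its HPGD probe set was below the filter. With 1 array left out that difference ran from 0.15, without LV-shNC replicate 1, to 0.40, without LV-shNC replicate 3. Only differences between groups are meaningful here, since signals of different probe sets are not on a common scale.

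**Figure D4:**
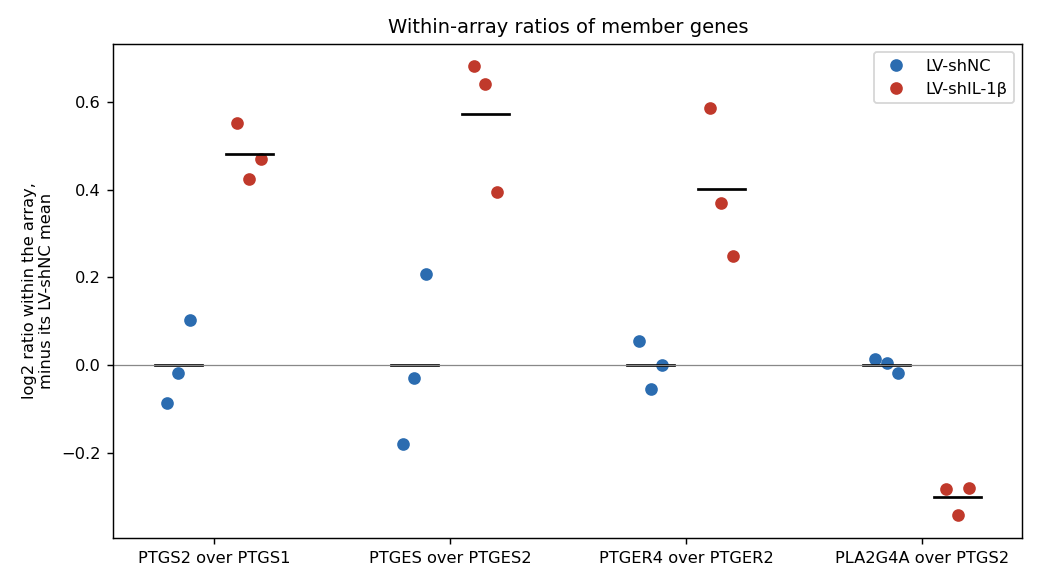
Within-array log2 ratios of 4 member pairs (y axis), each minus the LV-shNC mean of that ratio, with LV-shNC arrays in blue, LV-shIL-1β arrays in red and group means as black lines. The red points lie above the blue ones for PTGS2 over PTGS1, PTGES over PTGES2 and PTGER4 over PTGER2, by 0.48, 0.57 and 0.40 in the mean, and below them for PLA2G4A over PTGS2.

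Across the 6 arrays, log2 signals of PTGS2 had a Pearson correlation of 0.990 with PTGES 210367_s_at, 0.871 with PTGES 207388_s_at and 0.980 with PTGER4. With the 4 PTGS1 probe sets it was between -0.965 and -0.701. The 5 genes with the pattern most like PTGS2 were FAM107B (r = 0.998), PLPP5, FOXP1, CFL2 and SS18 (r = 0.997 each), all of them called higher. These correlations are descriptions over 6 arrays in 2 groups, and any gene that separates the groups takes part in them.

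Beyond the members, 84 other genes of eicosanoid metabolism and signalling were listed in 8 groups. A probe set with a single symbol existed for 77, of which 45 were measured past the filter and 32 were not, and each was read from its brightest probe set past the filter. Of the 45, 1 was called higher, 7 were called lower and 37 did not pass, 17.8% called against 7.05% of all probe sets tested. When any probe set past the filter could make the call, 10 of the 45 were called, with ANXA1 and TIAL1 added. Both counts are by gene, while the 7.05% is over single probe sets, dim ones included. Neither count thus has a like share beside it. The median log2 fold change of the 45 was -0.06. The calls are given here along the pathway.

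Among genes that release or re-esterify arachidonic acid, 13 of 23 were measured, and 0 were called higher and 2 lower. MGLL, the monoacylglycerol lipase, which frees arachidonic acid from an endocannabinoid, fell by 0.45 ± 0.08 on the log2 scale, from 94.8 to 69.2 (SE, n = 3, limma adjusted p = 0.00868), and its second probe set fell too (limma adjusted p = 0.0310). PLAAT3, a phospholipase A and acyltransferase of fat and epithelial cells, fell by 0.43 ± 0.07 on that scale, from 138 to 103 (SE, n = 3, limma adjusted p = 0.00706). Its second probe set also had a lower mean and did not pass (limma adjusted p = 0.166). ANXA1, an annexin known to restrain phospholipase A2, had 3648 ± 107 and 3694 ± 136 on its brightest probe set (SD, n = 3, log2 fold change 0.02). Another ANXA1 probe set, 233011_at, rose by 0.88 ± 0.12 on the log2 scale (SE, n = 3, limma adjusted p = 0.00322), so the probe sets of this gene disagree.

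Among the other prostanoid synthases 4 of 7 were measured, and 1 was called. CBR1, a carbonyl reductase that turns prostaglandin E2 into prostaglandin F2α, had 582, 540 and 543 in LV-shNC and 364, 355 and 361 in LV-shIL-1β. These lie far apart, and the gene fell by 0.62 ± 0.05 on the log2 scale, or 1.54-fold (SE, n = 3, limma adjusted p = 0.000254, rank 23 of all probe sets tested). It passed under all 16 alternative settings. AKR1C3 (174 and 172), PTGDS and PRXL2B did not pass.

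For transport and breakdown 5 of 7 genes were measured. PTGR1, a reductase that breaks down prostaglandin and leukotriene metabolites, fell by 0.25 ± 0.06 on the log2 scale, from 544 to 459 (SE, n = 3, limma adjusted p = 0.0343). A second of its probe sets fell as well (limma adjusted p = 0.0450), and the third did not pass (0.870). The PTGR1 call held in 2 of 6 fits with 1 array left out, and without LV-shNC replicate 2 or 3 or LV-shIL-1β replicate 2 or 3 the adjusted p reached 0.149. It was also lost with a variance prior that had no trend over signal (limma adjusted p = 0.0852). SLCO3A1, a prostaglandin transporter, did not pass (log2 fold change -0.22 ± 0.07 SE, limma adjusted p = 0.0819). Its other probe sets past the filter had log2 fold changes of -0.07, 0.02 and 0.20 and did not pass either. CBR3, a second carbonyl reductase, did not pass (log2 fold change -0.23 ± 0.07 SE, limma adjusted p = 0.0808).

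Of the other prostanoid receptors 4 of 7 were measured and 0 passed in limma, with 0 at an unadjusted p under 0.05 and 0 by the methods' t-test after adjustment. TBXA2R, the thromboxane receptor, had 69.6 and 65.5 (log2 fold change -0.09). PTGER1, a prostaglandin E2 receptor that signals through calcium, had 56.9 and 57.1, and the sign of its log2 fold change of 0.01 turned under median centring (-0.02), quantile normalization (-0.01) and array weights (-0.0018).

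In the branches of arachidonic acid metabolism that compete with the cyclooxygenases, ALOX5 and CYP2J2 were called. ALOX5, the lipoxygenase that starts leukotriene synthesis, had 54.3, 70.7 and 76.6 in LV-shNC and 46.2, 44.6 and 41.9 in LV-shIL-1β. It fell by 0.59 ± 0.12 on the log2 scale (SE, n = 3, limma adjusted p = 0.0182), and the LV-shNC arrays were widely spread. Its call held in 2 of 6 fits with 1 array left out. Without LV-shNC replicate 2 or 3 or LV-shIL-1β replicate 2 or 3 the limma adjusted p reached 0.0827. A second ALOX5 probe set, 214366_s_at, also had a lower mean and did not pass (log2 fold change -0.30, limma adjusted p = 0.175). The other 4 measured genes of that list, out of 13, did not pass, among them LTA4H, the leukotriene A4 hydrolase, with 1047 and 1048.

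CYP2J2, an epoxygenase, had 24.1, 28.5 and 25.7 in LV-shNC and 33.5, 33.1 and 33.8 in LV-shIL-1β. It rose by 0.36 ± 0.09 on the log2 scale (SE, n = 3, limma adjusted p = 0.0378), the only call of a higher gene among the brightest probe sets of the 45. The call held only without LV-shNC replicate 2 among the 6 fits with 1 array left out, and reached an adjusted p of 0.118 in the others. It was also lost without the filter (limma adjusted p = 0.0643) and with median centring (limma adjusted p = 0.0546). Of the epoxide hydrolases, EPHX1 (log2 fold change 0.22 ± 0.14 SE) and EPHX2 (-0.38 ± 0.10 SE) did not pass, with limma adjusted p-values of 0.385 and 0.0573.

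RNA-binding proteins known to act on the PTGS2 message were measured for 6 of 7 genes, and 0 passed in limma on their brightest probe sets, while 2 were higher and 1 lower at an unadjusted p under 0.05 and 0 passed by the methods' t-test after adjustment. ELAVL1, the HuR protein that stabilises such messages, had 1316 ± 27.6 and 1444 ± 35.9 (SD, n = 3, log2 fold change 0.13 ± 0.04 SE, limma adjusted p = 0.0659). ZFP36, tristetraprolin, which destabilises them, had 246 ± 9.24 and 282 ± 25.5 (SD, n = 3, log2 fold change 0.20 ± 0.07 SE, limma adjusted p = 0.137). TIAL1, a related RNA-binding protein, had 932 and 892 on its brightest probe set (log2 fold change -0.06). Its probe sets disagree: 230350_at had 137, 140 and 154 in LV-shNC and 172, 186 and 192 in LV-shIL-1β, and rose by 0.35 ± 0.07 on the log2 scale (SE, n = 3, limma adjusted p = 0.0170), while 202405_at had a higher mean in LV-shIL-1β and did not pass (limma adjusted p = 0.0780).

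Genes that cAMP is known to induce were read because the receptors PTGER2 and PTGER4 raise cAMP. Of the 10 listed, 5 were measured, 0 were called higher and 2 lower. SIK1, a salt-inducible kinase, fell by 0.40 ± 0.06 on the log2 scale, from 414 to 315 (SE, n = 3, limma adjusted p = 0.00650), although its second probe set did not pass (limma adjusted p = 0.849). RGS2, a regulator of G protein signalling, fell by 0.29 ± 0.07 on that scale, from 168 to 137 (SE, n = 3, limma adjusted p = 0.0314), a call that held only without LV-shNC replicate 2 among the 6 fits with 1 array left out and was also lost with a variance prior without that trend (limma adjusted p = 0.0551). NR4A1, CREM and PDE4D did not pass.

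**Figure D5:**
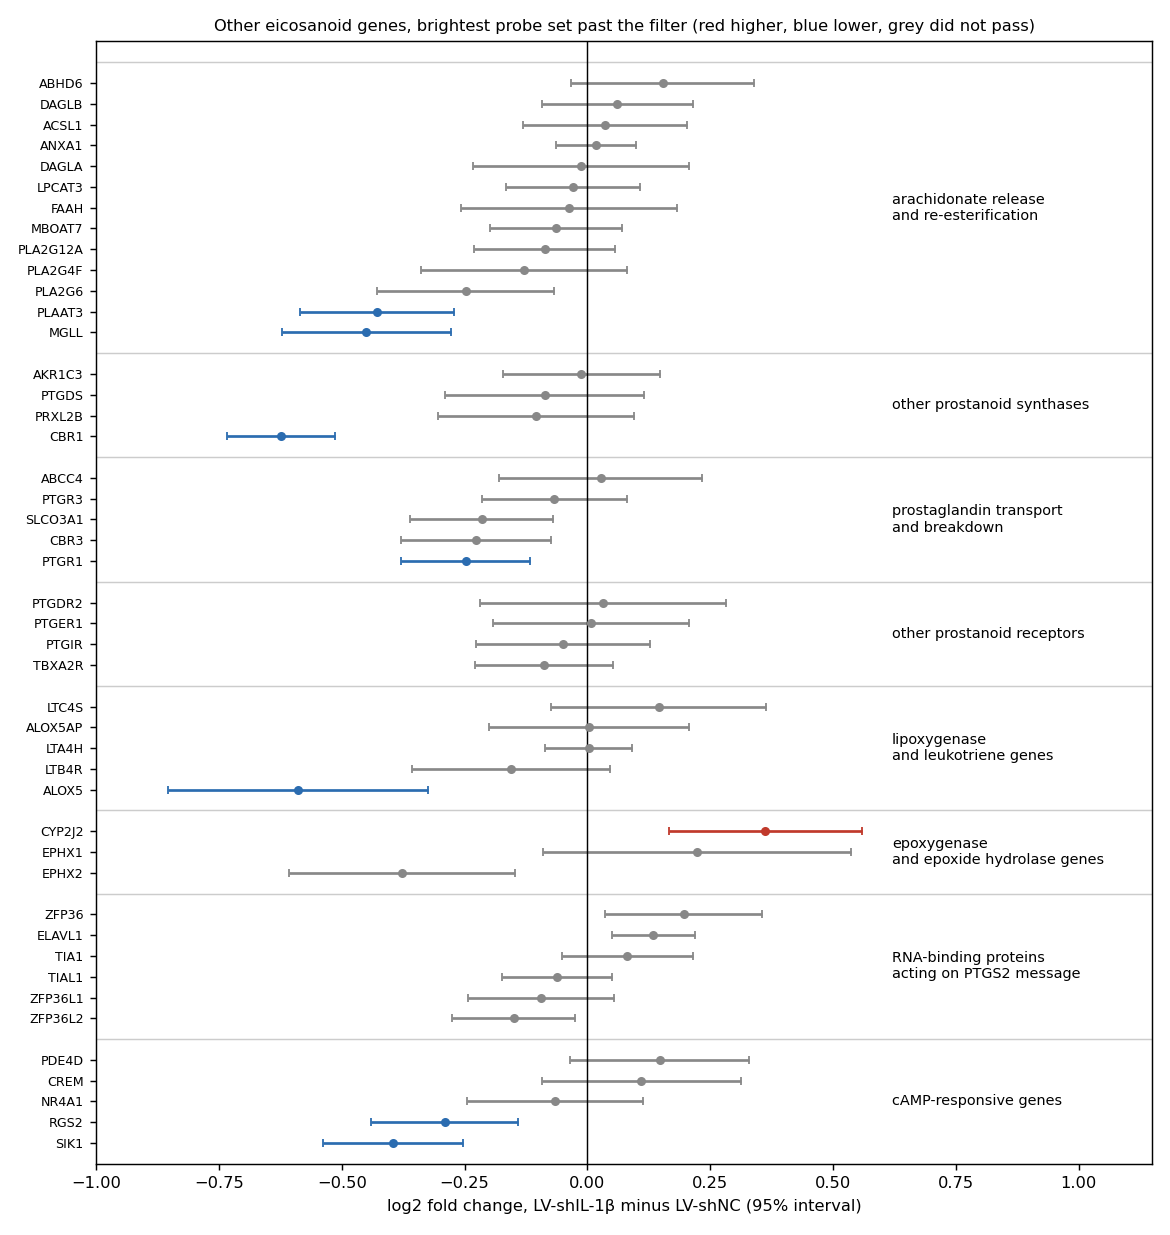
Log2 fold change (LV-shIL-1β minus LV-shNC, x axis) with its 95% interval for the 45 measured genes of the wider lists, grouped by list. Blue marks the 7 called lower, red the 1 called higher and grey the 37 that did not pass. CBR1, at -0.62, lies farthest to the left.

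The order of genes along the chromosome in GRCh38.p14 was read beside PTGS1, PTGS2, PTGES, PTGER4, CBR1 and SIK1. This comparison was chosen after the values were seen, and the other called wider genes were not read in this way. Each gene that was read was set beside the 10 nearest measured genes on either side. For PTGES and PTGS2, 10 of 20 neighbours had a positive log2 fold change, and for PTGS1 it was 12 of 20. PTGER4 rose although 18 of its 20 neighbours had a negative log2 fold change, 6 of them called lower, with a median of -0.17. CBR1 fell among neighbours of which 18 of 20 had a negative log2 fold change, 10 of them called lower, with a median of -0.27. SIK1 fell among neighbours of which 17 of 20 had a negative log2 fold change, 6 of them called lower, with a median of -0.15. CBR1, CBR3 and SIK1 lie on the same chromosome, with CBR3 close to CBR1. Their lower values are therefore not read as unrelated. Over all probe sets tested, 3.37% were called lower and the median log2 fold change was 0.01. The neighbours were read from the brightest probe set of each gene, so these shares are not wholly alike. What part the neighbourhood has in the PTGER4, CBR1 and SIK1 values was not tested.

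Markers of cell types were read to check the label. Of 8 squamous epithelial markers 5 had a probe set with a single symbol, and all 5 passed the filter, among them KRT14, KRT5, CDH1 and SFN. Their summed signal was 19465 to 19921 in LV-shNC and 17375 to 17545 in LV-shIL-1β, since KRT5 fell by 0.32 and KRT14 by 0.35 on the log2 scale. Of 5 leukocyte markers on the array 1 passed the filter, CD14, which had 49.5 ± 2.76 and 70.4 ± 4.07 (SD, n = 3, limma adjusted p = 0.00454). The pan-leukocyte marker PTPRC lay between 2.32 and 2.85 on all arrays. The summed leukocyte signal was 81.8 to 88.5 and 104 to 106, a sum that includes CD14. The other leukocyte markers on the array were below the filter. For PTPRC, CD3E and MS4A1 the groups overlapped, and ITGAM had a lower mean in LV-shIL-1β (13.1 and 11.1). Of 6 fibroblast markers 4 passed the filter. COL1A2 (21.9 to 25.2 in LV-shNC and 15.1 to 17.1 in LV-shIL-1β) and LUM (20.4 to 32.6 and 10.3 to 13.7) passed it only through the LV-shNC arrays, so nothing is drawn from their calls. The fibroblast list had sums of 150 to 173 and 118 to 132. These sums include COL1A2 and LUM, so nothing is drawn from their difference either. Of the 4 mast cell and the 4 endothelial markers 1 each passed and 0 were called, with sums of 44.5 to 50.0 and 44.1 to 49.9 for mast cells and of 62.0 to 65.4 and 60.5 to 62.1 for endothelial cells. No marker was at 0, and the part of other cells in the member values was not tested.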

How the data were processed

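The 6 Affymetrix U133 Plus 2.0 arrays fell into groups of 3, taken from the labels. Per the labels, biotin-labelled cRNA came from 6 µg of total RNA. The deposited values were linear intensities for each probe set and array, which the authors made with MAS5 (named in the submitters' processing notes, version not given). Its scaling and normalization are not stated in the sources used here.

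The deposited intensities were log2-transformed without further normalization. The 62 array controls were left out, and 27566 of 54613 probe sets passed the filter of 3 arrays above 18.6. The groups were fitted in R 4.3.3 with limma 3.58.1, using lmFit and a trended eBayes, two-sided, with Benjamini-Hochberg adjustment and a threshold of 0.05. Within-array ratios were compared by a two-sided exact permutation test over 20 divisions of the arrays. The number of arrays limits the precision. Scripts were tested on simulated data.

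The platform annotation gave 41097 probe sets a single symbol, and 41043 of these had their identifier in RefSeq. Named were all members, IL1B, and from each wider list every called gene or otherwise the 2 brightest. Other genes of these lists, markers and further probe sets were named after their values were seen. Members, lists and tests were chosen with earlier results of these data known. The alternatives were another filter, scaling, pseudocount, variance trend, array weights, a replicate block, the methods' t-test and leaving out each array.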

Additional observations from a re-analysis of the deposited data

How the results depend on the processing

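Over 16 alternative settings, PTGES 210367_s_at, CBR1 and IL1B kept their calls, and no called member or wider gene changed direction. The count of called probe sets (1943) was 568 with a replicate block, 267 by the methods' t-test after adjustment and 5227 by the same test unadjusted, and 696 to 1808 with 1 array left out. Array weights gave 2827. The split of higher against lower calls was 1014 to 929, but 886 to 1189 with median centring. The count of called member probe sets (6) was 2 with a replicate block, 1 by the methods' t-test after adjustment, and 3 to 5 with 1 array left out. It was 3 without LV-shIL-1β replicate 2. The count of called wider genes (8) was 3 with a replicate block, 1 and 16 by the methods' t-test adjusted and unadjusted, and 4 to 7 with 1 array left out. It was 4 without LV-shNC replicate 3 and without LV-shIL-1β replicates 2 or 3. The log2 fold change of PTGES3 turned to -0.016 with median centring and to -0.0056 with array weights, with a range of -0.012 to 0.029 with 1 array left out. That of PTGER1 turned to -0.017, -0.011 and -0.0018 with median centring, quantile normalization and array weights, with a range of -0.036 to 0.090. The cause was not tested in any of these.

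The replicate numbers are shared between the groups, but same-numbered arrays deviated from their group means with correlations of -0.39, -0.11 and -0.21, so the numbers were not taken as pairs. Under the replicate block PTGES 210367_s_at (limma adjusted p = 0.00697) and PTGS1 238669_at (limma adjusted p = 0.0356) were still called, and PTGS1 205127_at, PTGES 207388_s_at, PTGS2 and PTGER4 had limma adjusted p-values of 0.0547, 0.0570, 0.111 and 0.164. Probe sets below the filter, HPGD among them, have signals near the low end of the scale, which limits what differences could be detected there.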
